A study of Mus musculus with 4 samples.

Results

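At 8 weeks of age, 9 of 9 genes of fatty acid uptake were lower in both Ctcf +/R567W hearts than in both wild-type hearts. The same was true of 24% of all 10036 tested genes. The 9 genes are Lpl, Gpihbp1, Angptl4, Vldlr, Cd36, Fabp4, Slc27a1, Fabp3 and Acsl1, chosen by name out of 55401 genes in the deposited table. They act in the uptake of fatty acids from the blood into heart muscle or, like Angptl4, in its control. The mean level of Lpl was 40.1% lower in the heterozygous hearts and that of Cd36 37.1% lower. Angptl4, a gene of low level that entered the test only through the wild-type hearts, was 85.5% lower. The other members were between 20.0% and 26.6% lower. None of the 9 genes passed the test corrected over all genes with 2 mice in each genotype, so these are measured differences and not calls.

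The RNA came from the hearts of 4 C57BL/6N mice aged 8 weeks, of which 2 were wild-type and 2 were Ctcf +/R567W, and each heart gave 1 library. The heterozygous mice carried, on 1 Ctcf allele, a substitution made by CRISPR/Cas9 editing (R567W) in a zinc finger of CTCF, a DNA-binding protein that organises chromatin loops. The labels name no drug or other agent for either genotype. The comparison belongs to the study's question of what differs in the adult heterozygous heart. The values are TPM, transcript numbers relative to a fixed total in each library and corrected for transcript length, a unit that keeps no read depth, so the depth behind each value is unknown. Levels below are scaled TPM, which means TPM divided by a factor for each library (1.08 and 1.27 for wild-type replicates 1 and 2, 0.821 and 0.910 for heterozygous replicates 1 and 2). Replicates are given in that order throughout, and a mean is followed by its SD with n = 2.

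The working heart draws most of its energy from fatty acids, and much of this supply arrives as triglyceride in circulating lipoproteins. Lipoprotein lipase, which cardiomyocytes make and secrete, is carried across the capillary wall to the luminal side by GPIHBP1, where it releases fatty acids, and ANGPTL4 inactivates it. CD36, the fatty acid transport proteins and the fatty acid binding proteins then move the fatty acids across the endothelium and the cardiomyocyte membrane and through the cytoplasm, and acyl-CoA synthetases trap them as acyl-CoA. Several genes of this route are known targets of the peroxisome proliferator-activated receptors (PPARs), nuclear receptors that bind fatty acids and recognise direct repeats of AGGTCA spaced by 1 base.

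The sequence just upstream of an annotated start is shown for 4 of the genes to set their different promoter types side by side, since the 9 genes were lower together. The RefSeq promoter table (GRCm38.p6) held 5 of the 9 members, Fabp3, Cd36, Acsl1, Slc27a1 and Vldlr, with 9 starts in all. Lpl, Angptl4, Gpihbp1 and Fabp4 are named only. The Cd36 start lies inside the gene as annotated by GENCODE (chr5:17781690-17888801, minus strand), so its window describes an internal start. Each sequence is the 250 bases before a start, 5′ to 3′ on the strand of the gene, at chr5:17835897-17836146 (minus strand) for Cd36, chr4:130308488-130308737 (plus) for Fabp3, chr8:46470787-46471036 (plus) for Acsl1 and chr8:71568621-71568870 (plus) for Slc27a1. Capitals mark every match on either strand to the nuclear receptor motif AGGTCA, to its direct repeat AGGTCANAGGTCA with at most 2 mismatches, to the CCAAT box (CCAAT), to the TATA box (TATAAA), to the E-box (CACGTG), to the GC box (GGGCGG) or to a short form of the CTCF motif (CCANNAGNNGGC). The first motif is contained in the direct repeat, so these 2 searches overlap.
Cd36: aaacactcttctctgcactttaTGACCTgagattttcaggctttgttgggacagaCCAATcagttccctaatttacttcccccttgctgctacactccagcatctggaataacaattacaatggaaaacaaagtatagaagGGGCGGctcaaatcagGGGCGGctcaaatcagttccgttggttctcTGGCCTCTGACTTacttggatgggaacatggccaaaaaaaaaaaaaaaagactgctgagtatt
Fabp3: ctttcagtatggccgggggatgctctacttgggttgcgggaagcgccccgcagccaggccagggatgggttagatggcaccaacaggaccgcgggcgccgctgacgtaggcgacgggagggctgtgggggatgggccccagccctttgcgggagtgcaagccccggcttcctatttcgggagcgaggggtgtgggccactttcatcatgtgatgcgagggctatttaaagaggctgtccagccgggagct
Acsl1: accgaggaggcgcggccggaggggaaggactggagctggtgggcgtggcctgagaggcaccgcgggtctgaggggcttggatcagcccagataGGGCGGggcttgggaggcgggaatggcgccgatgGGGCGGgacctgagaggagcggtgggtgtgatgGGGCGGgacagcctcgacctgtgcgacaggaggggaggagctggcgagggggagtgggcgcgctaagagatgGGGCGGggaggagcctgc
Slc27a1: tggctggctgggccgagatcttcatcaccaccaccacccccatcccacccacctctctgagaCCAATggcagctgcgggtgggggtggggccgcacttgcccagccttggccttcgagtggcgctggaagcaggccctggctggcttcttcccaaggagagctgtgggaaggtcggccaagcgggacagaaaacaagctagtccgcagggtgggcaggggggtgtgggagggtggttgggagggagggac

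Cd36 was the only member in the table with a match to AGGTCA, at -228 to -223 from the start on the antisense strand, and with a match to the direct repeat, at -63 to -51 on the antisense strand with 2 mismatches. AGGTCA stood in 14.0% and the direct repeat with up to 2 mismatches in 3.24% of the 32851 promoters of the table. The Cd36 window also held a pair of GC boxes and a CCAAT box, and it was poor in GC (43.2%, with a median of 52.4% over all promoters). The first Acsl1 window had a GC content of 72.0% and 4 GC boxes, a motif present in 32.7% of promoters. The first Slc27a1 window had a GC content of 66.4% and 1 CCAAT box, a motif in 33.8% of promoters, and the Fabp3 window had a GC content of 64.8% and none of the motifs. None of the 9 windows held CCANNAGNNGGC, which 2.07% of promoters had, or TATAAA, which 12.4% had, and the E-box, in 6.02% of promoters, stood only upstream of the last Slc27a1 start. These matches describe letters in short windows, and binding was not measured in these hearts.

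The members were expressed at very different levels. In wild-type hearts the order was Fabp3, Fabp4, Lpl, Gpihbp1, Slc27a1, Cd36, Acsl1, Vldlr and Angptl4, from a mean of 1031 down to 2.47 scaled TPM. Neighbours in this order had separate wild-type values except Slc27a1 and Cd36, whose ranges overlapped. In the heterozygous hearts Slc27a1 and Cd36 were apart, whereas Lpl overlapped Gpihbp1 and Cd36 overlapped Acsl1.

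**Figure D1:**
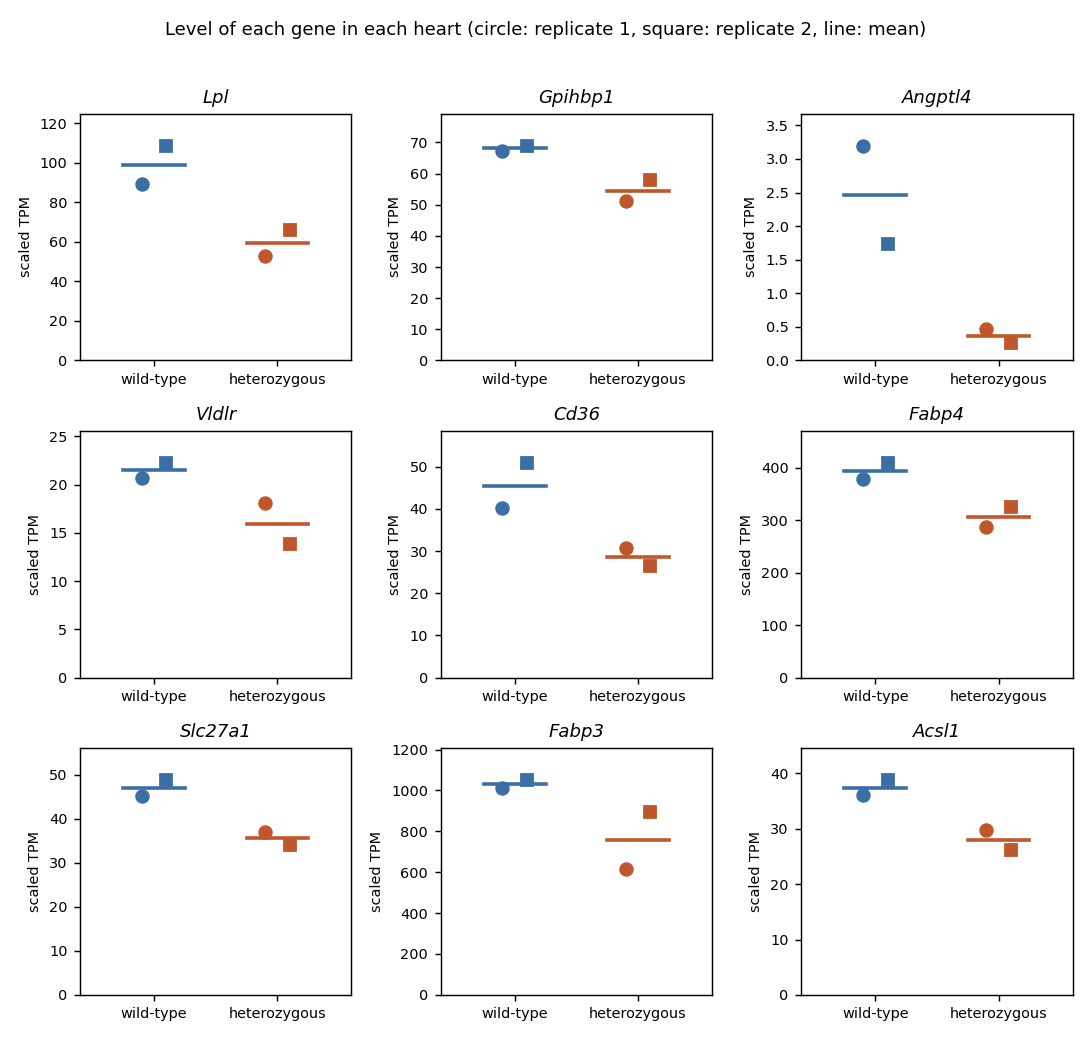
Level of each of the 9 genes in each heart, in scaled TPM on a linear axis from 0, with wild-type hearts in blue and Ctcf +/R567W hearts in orange; circles are replicate 1, squares replicate 2 and lines the mean of 2. In every panel both heterozygous points lie under both wild-type points, with the widest relative gap for Angptl4 and a wide spread between the heterozygous hearts for Fabp3.

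Lpl, which encodes lipoprotein lipase (chr8:68880491-68907448, plus strand, mm10), was at 89.5 and 109 scaled TPM in the wild-type hearts and at 52.7 and 66.0 in the heterozygous hearts. Both heterozygous values lay below both wild-type values. The means were 99.1 ± 13.6 and 59.4 ± 9.42, and the log2 fold change, on the log2(scaled TPM + 1) scale used for all fold changes, was -0.73 (SE 0.20, 95% interval -1.22 to -0.24, adjusted p = 0.328). Only 1.11% of the 10036 tested genes had a log2 fold change as low or lower. The interval before correction lay below 0, and the adjusted p did not pass 0.05.

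Gpihbp1 (chr15:75596628-75599481, plus strand), the capillary anchor and carrier of lipoprotein lipase, was at 67.2 and 68.9 scaled TPM in wild-type and at 51.2 and 57.8 in heterozygous hearts. The groups did not overlap, yet this was the smallest difference of the 9, at 68.1 ± 1.19 against 54.5 ± 4.66. The log2 fold change was -0.32 (SE 0.17, 95% interval -0.73 to 0.09, adjusted p = 0.476), and 11.7% of tested genes were as low or lower.

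Angptl4 (chr17:33773750-33781830, minus strand), the secreted inhibitor of lipoprotein lipase, was a gene of low level, at 3.20 and 1.74 scaled TPM in wild-type and 0.463 and 0.253 in heterozygous hearts. The groups were separate, but the wild-type hearts themselves differed, with replicate 1 the higher. The ratio of the means, 2.47 ± 1.03 to 0.358 ± 0.149, was 6.89. The log2 fold change was -1.32 (SE 0.22, 95% interval -1.85 to -0.79, adjusted p = 0.197), and 0.309% of tested genes were as low or lower. Its size rested on the pseudocount, at -2.46 with 0.1 and -0.47 with 5. The mean TPM of 1.57 passed the minimum of 1 through the wild-type hearts alone, since the deposited TPM of the heterozygous hearts were 0.38 and 0.23, so this gene could enter the test only by being lower in them.

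Vldlr (chr19:27216484-27254231, plus strand), a receptor that binds triglyceride-rich lipoproteins, was at 20.7 and 22.2 scaled TPM in wild-type and 18.04 and 13.8 in heterozygous hearts. The higher heterozygous heart was close to the wild-type range and the other was well below it. The means were 21.5 ± 1.08 and 15.9 ± 3.00, with a log2 fold change of -0.42 (SE 0.18, 95% interval -0.85 to 0.01, adjusted p = 0.411). Without heterozygous replicate 2 the value was -0.24, and without heterozygous replicate 1 it was -0.61.

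Cd36 (chr5:17781690-17888801, minus strand), the fatty acid translocase of endothelium and cardiomyocytes, was at 40.2 and 50.9 scaled TPM in wild-type and 30.8 and 26.6 in heterozygous hearts. The groups did not overlap, and the wild-type hearts differed more from each other than the heterozygous hearts did. The means were 45.6 ± 7.57 and 28.7 ± 2.97, and the log2 fold change was -0.64 (SE 0.19, 95% interval -1.10 to -0.19, adjusted p = 0.336). Of the tested genes, 1.70% were as low or lower.

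Fabp4 (chr3:10204088-10208576, minus strand), a fatty acid binding protein of capillary endothelium and adipocytes, was at 379 and 409 scaled TPM in wild-type and 288 and 326 in heterozygous hearts. The log2 fold change was -0.36 (SE 0.19, 95% interval -0.82 to 0.10, adjusted p = 0.474), with means of 394 ± 21.7 and 307 ± 26.9. The groups were separate, by a gap between the nearest hearts of 52.9 scaled TPM. Slc27a1 (chr8:71568882-71587302, plus strand), which encodes fatty acid transport protein FATP1, was at 45.2 and 48.7 in wild-type and 37.1 and 34.0 in heterozygous hearts. Both genotypes were tight for Slc27a1, at 47.0 ± 2.52 and 35.5 ± 2.14, and the log2 fold change was -0.39 (SE 0.17, 95% interval -0.79 to 0.01, adjusted p = 0.409). Transcripts of Slc27a1 share stretches of 200 to 234 bases, at 86.3% to 90.2% identity, with 8 other genes, all of which had a TPM below 4 in every heart.

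Fabp3 (chr4:130308595-130315463, plus strand), the cytoplasmic fatty acid binding protein of heart muscle and the most abundant of the 9, was at 1011 and 1051 scaled TPM in wild-type and 617 and 896 in heterozygous hearts. The wild-type hearts were alike, while heterozygous replicate 1 was far below replicate 2. The means were 1031 ± 28.2 and 756 ± 197, with a log2 fold change of -0.47 (SE 0.24, 95% interval -1.05 to 0.10, adjusted p = 0.456). The size rested on which heterozygous heart was used, at -0.21 without replicate 1 and -0.74 without replicate 2. Fabp3 shares 99.3% identity over 402 bases with the pseudogene Fabp3-ps1, so reads could be split between them. Summed with that pseudogene the levels were 1024, 1064, 622 and 904, and the log2 fold change was -0.48. Fabp3 also overlaps Zcchc17 and Gm10570 on the opposite strand, and the strand setting of the quantification is not given in the sources used here.

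Acsl1 (chr8:46471037-46536051, plus strand), the main long-chain acyl-CoA synthetase of the heart, was at 36.1 and 38.8 scaled TPM in wild-type and 29.8 and 26.1 in heterozygous hearts. Both heterozygous hearts were lower, at 27.9 ± 2.56 against 37.5 ± 1.88. The log2 fold change was -0.41 (SE 0.17, 95% interval -0.81 to -0.01, adjusted p = 0.393). Acsl1 overlaps Gm45244 on the opposite strand, so the same limit applies.

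The 9 members had a median log2 fold change of -0.42, beside -0.01 over the 10036 tested genes, of which 51.6% were lower in heterozygous hearts. Both heterozygous hearts were below both wild-type hearts for 9 of 9 members, and for 24% of all tested genes. The members are not independent of each other in 4 shared hearts, so this count is not a test. The share of all tested genes higher without overlap was not counted, so counts of such genes below stand without it. A difference over 1.5-fold was seen for 3 members, Angptl4, Lpl and Cd36, and for 2.33% of all tested genes in that direction. An unadjusted limma p under 0.05 was reached by 4 members, these 3 and Acsl1, and by 6.08% of all tested genes in that direction (610 lower, with 624 higher). Angptl4 entered the test only by being high in wild-type hearts, and without it the counts were 8 of 8 members without overlap, 2 of 8 over 1.5-fold lower and 3 of 8 at an unadjusted limma p under 0.05. By the rule for calls, which asked for an adjusted p below 0.05 together with a difference over 1.5-fold, limma called 0 members and 0.0299% of all tested genes. Those 3 called genes were Gm8186, Gm14325 and Zc3h11a, all lower and none in fatty acid uptake. Lpl and Angptl4 are also on the study's own list of genes lower at 8 weeks, which was made from these same hearts, so that listing is not independent of the values here.

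**Figure D2:**
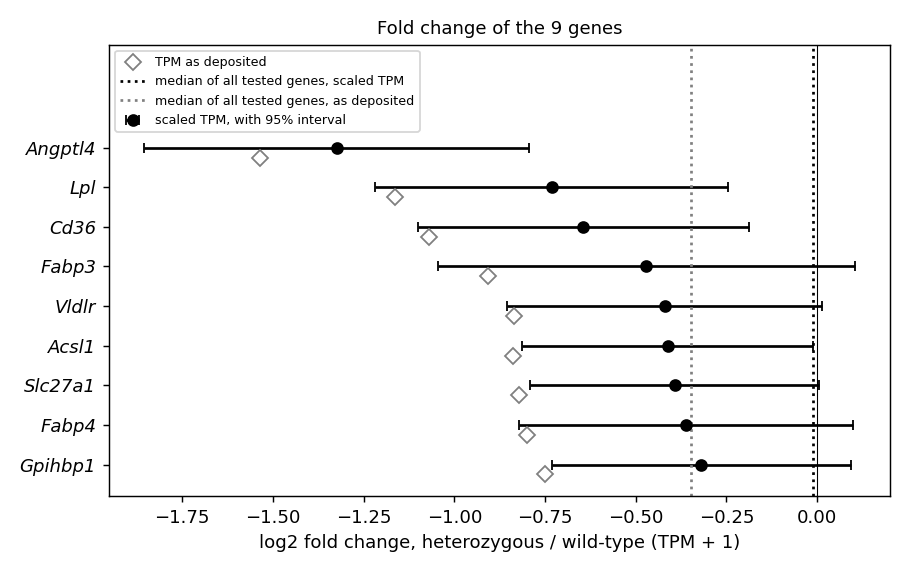
Log2 fold change of heterozygous over wild-type hearts for the 9 genes, as filled points with 95% limma intervals on scaled TPM and open diamonds on TPM as deposited; dotted lines are the medians of all tested genes on each scale. All filled points lie below 0, from -1.32 for Angptl4 to -0.32 for Gpihbp1, and 5 of the 9 intervals reach above 0.

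The scaling set the size of these differences but not their direction. With TPM as deposited the median of all tested genes was itself at -0.35 and that of the members at -0.84. On that scale Angptl4 passed the threshold, with a log2 fold change of -1.54 and an adjusted p of 0.0342, though its direction was already fixed by the minimum level, which the heterozygous hearts did not reach. Its adjusted p lay between 0.00807 and 0.522 over all alternatives, and the lowest of these came without wild-type replicate 2. Mitochondrially encoded (mt-) genes took 64.7% and 61.1% of the TPM in wild-type hearts and 68.6% and 62.6% in heterozygous hearts. Ctcf itself was at 6.15 and 5.99 scaled TPM in wild-type and 7.48 and 5.71 in heterozygous hearts, overlapping levels that cannot check the genotype, since the edit changes an amino acid. With 2 mice against 2, an exact permutation test of a single gene cannot give a p below 0.333. The limma p-values use a variance drawn partly from other genes of similar level, and not only that gene's own spread between these 4 hearts.

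Ratios within a heart do not depend on the scaling, and they showed which members differed by unequal amounts. Angptl4 was 3.57% and 1.597% of the Lpl level in wild-type hearts and 0.879% and 0.383% in heterozygous hearts. Angptl4 reached the minimum level through the wild-type hearts alone. The lower ratio of inhibitor to enzyme was therefore largely set in advance and is given as a description only. Gpihbp1 was 75.2% and 63.4% of Lpl in wild-type and 97.2% and 87.5% in heterozygous hearts, so the carrier was higher relative to the enzyme. The exact two-sided permutation p of both ratios was 0.333, the smallest that 2 against 2 allows. Acsl1 was 79.9% and 79.6% of Slc27a1 in wild-type and 80.3% and 76.8% in heterozygous hearts, an overlap within a narrow range, and Fabp4 was 37.5% and 39.0% of Fabp3 in wild-type and 46.6% and 36.4% in heterozygous hearts, also overlapping (exact permutation p = 1.0 for both). Vldlr relative to Lpl overlapped as well, at 23.1% and 20.5% against 34.2% and 20.9% (exact permutation p = 0.667).

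**Figure D3:**
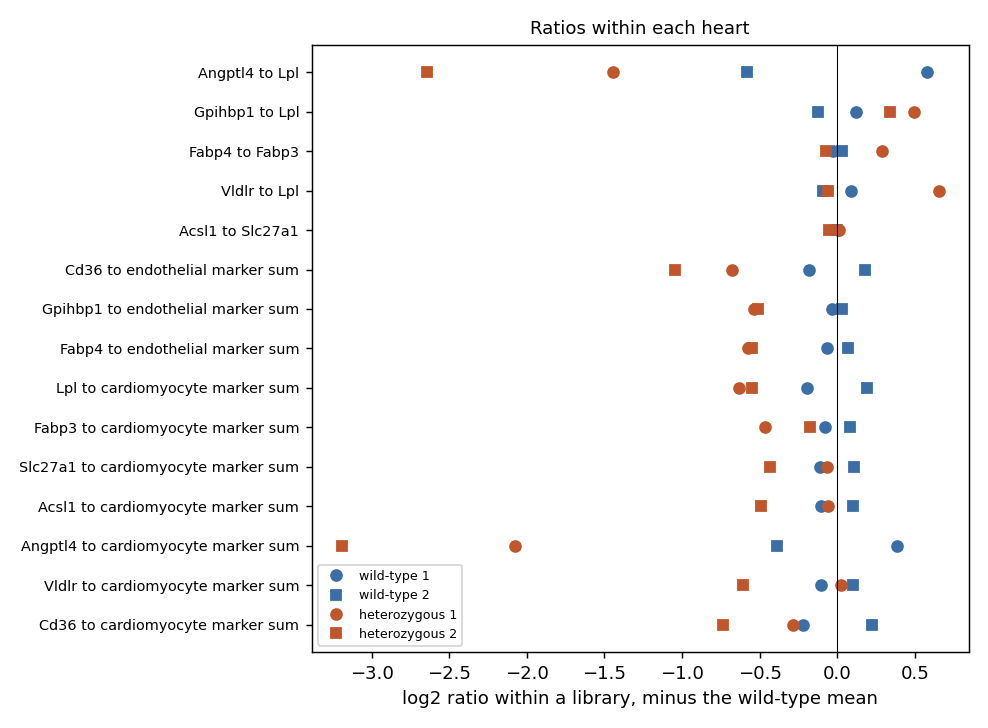
Log2 ratio of each gene to another gene or to a summed marker list within each heart, minus the wild-type mean of that ratio; blue marks are wild-type and orange marks heterozygous hearts, with circles for replicate 1 and squares for replicate 2. Angptl4 to Lpl lies lower and Gpihbp1 to Lpl higher in both heterozygous hearts, while Acsl1 to Slc27a1 stays near 0 in all 4.

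In whole-heart RNA, fewer cells of a type and less RNA per cell cannot be told apart, and the levels of cell type markers stand here beside the members made by those cells. The summed level of 13 cardiomyocyte markers, such as Myh6, Myl2 and Tnnt2, was 27022 and 25121 scaled TPM in wild-type hearts. It was 21553 and 25538 in heterozygous hearts. The median log2 fold change of these markers was -0.21, with 10 lower and 3 higher. Without overlap, 6 were lower and 1 was higher, beside 24% of all tested genes lower without overlap. Myh6 filled more of that sum than any other gene, at 9484 and 9120 in wild-type and 9096 and 10470 in heterozygous hearts. Relative to that sum, Lpl was 0.331% and 0.433% in wild-type and 0.245% and 0.259% in heterozygous hearts, and Fabp3 was 3.74% and 4.18% against 2.86% and 3.51%. Against the geometric mean of the markers, the log2 difference for Fabp3 was -0.27 rather than -0.32, still without overlap. The marker Actc1 was itself lower without overlap, at 1073 and 1004 against 644.3 and 874.5 scaled TPM. Fabp3 overlapped between genotypes relative to Actc1 alone and was lower relative to Myh6 alone, so its ratio rests on the marker. Relative to the sum, Angptl4 and Cd36 were lower without overlap, as Lpl and Fabp3 were (exact permutation p = 0.333 for all 4 genes). For Cd36 the nearest hearts were close, at 0.149% and 0.143%. For Angptl4 the direction was largely set by the minimum level, which it reached through the wild-type hearts alone. Slc27a1, Acsl1 and Vldlr overlapped between genotypes on this basis (exact permutation p = 0.667 for each). Heterozygous replicate 1 was within the wild-type range for these 3 genes.

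The summed level of 14 endothelial markers was 349 and 343 scaled TPM in wild-type and 377 and 419 in heterozygous hearts. The median log2 fold change of these markers was -0.06, with 10 lower and 4 higher. Without overlap, 3 were lower and 3 higher, beside 24% of all tested genes lower without overlap. Relative to the summed level Gpihbp1 was 19.3% and 20.1% in wild-type and 13.6% and 13.8% in heterozygous hearts. Fabp4 was 109% and 119% against 76.4% and 77.8%, and Cd36 was 11.5% and 14.8% against 8.17% and 6.35%. All 3 were lower without overlap (exact permutation p = 0.333 for each). More than any other gene, Egfl7 filled that sum, at 198 and 192 scaled TPM in wild-type and 234 and 275 in heterozygous hearts. Without Egfl7 the sum was 152 and 151 in wild-type and 143 and 144 in heterozygous hearts, and the differences in log2 ratio shrank from -0.52 to -0.24 for Gpihbp1, from -0.56 to -0.28 for Fabp4 and from -0.86 to -0.58 for Cd36, still with no overlap. The defining marker Pecam1 was at 12.8 and 13.8 in wild-type and 8.50 and 10.7 in heterozygous hearts, whereas Cdh5 was at 12.1 and 13.7 against 12.6 and 12.8. Relative to Pecam1 alone, Gpihbp1 and Fabp4 were higher in both heterozygous hearts than in both wild-type hearts, the reverse direction, and Cd36 overlapped. Relative to Cdh5 alone, Gpihbp1 and Fabp4 were lower, so these ratios rest on the marker. The part of cell numbers in these results was not tested.

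Adipocytes express Lpl, Fabp4 and Cd36 strongly, and the defining markers Adipoq and Plin1 were near 0 in all 4 hearts. Adipoq was at 0.333 and 0.103 scaled TPM in wild-type and 0.0487 and 0.0989 in heterozygous hearts, lower without overlap. Plin1 overlapped, at 0.0462, 0.0316, 0.0244 and 0.110. Cidec and Pck1, also near 0, were lower without overlap, while Retn, Lep, Ucp1 and Elovl3 were not. Only 2 of the 12 adipocyte markers were high enough to be tested, Lipe and Cidea, and these make up most of the list's sum of 22.9, 19.6, 15.4 and 16.8. Lipe, a lipase also active in heart muscle, was at 14.1 and 12.0 in wild-type and 9.37 and 8.32 in heterozygous hearts, lower without overlap like the members, and Cidea overlapped. Among the markers below the minimum, Cfd was at 1.73 and 0.742 in wild-type and 0.0853 and 0.582 in heterozygous hearts, also lower without overlap, and Adig overlapped at 0.6005 and 0.986 against 0.256 and 1.39. The part of adipocyte RNA in the members' values was not tested. The atrial markers, a list of 5 genes such as Myl7 and Nppa, summed to 810 in wild-type replicate 1 and to 2341 in wild-type replicate 2, and to 1911 and 3258 in the heterozygous hearts. By log2 fold change all 5 were higher in the heterozygous hearts, with a median of 0.92. Erythroid markers summed to 934, 981, 962 and 2104, with heterozygous replicate 2 the highest. All 5 of these were also higher by log2 fold change, with a median of 0.53. The atrial sums overlapped between genotypes, so no member with separate groups could follow their order, and the order is no test. Wild-type replicate 1, with the least atrial signal, had the highest Angptl4 level. The other 8 members were higher in wild-type replicate 2 than in replicate 1. The part of the tissue sampled in the results was not tested. Of 8 fibroblast markers, 6 were lower in heterozygous hearts, with a median log2 fold change of -0.18 and sums of 65.3 and 90.3 scaled TPM in wild-type and 59.8 and 64.2 in heterozygous hearts. Of 8 mural cell markers, 7 were lower, 4 of them without overlap, beside 24% of all tested genes. Their median was -0.17, with sums of 93.3 and 84.5 against 68.7 and 82.4. These medians were about as low as that of the cardiomyocyte markers, while 9 tested macrophage markers had a median of -0.03, with 7 lower. The skeletal muscle markers Myh1, Myh2 and Myh4 were listed at 0 in every heart.

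The other genes of lipoprotein lipase biology were nearer to no difference than the members. Of 22 genes for lipase maturation, cofactors and lipoprotein receptors, 13 were high enough to be tested, and 9 were lower and 4 higher, with a median log2 fold change of -0.04. None passed the corrected limma threshold in either direction, and none had an unadjusted p under 0.05. Lmf1, the maturation factor that folds the lipase in the endoplasmic reticulum, was at 4.11 and 4.48 scaled TPM in wild-type and 3.36 and 4.60 in heterozygous hearts, an overlap. The lowest fold changes among genes whose groups were separate belonged to Pcsk6, a proprotein convertase (-0.38, adjusted p = 0.429), and Pdia4, an endoplasmic reticulum disulfide isomerase (-0.24, adjusted p = 0.504). The most abundant of the list overlapped between genotypes, namely Apoe at 66.5 and 94.2 against 59.7 and 74.7 scaled TPM, the proteoglycan Hspg2 at 71.6 and 68.6 against 70.9 and 84.2, and the remnant receptor Lrp1 at 19.7 and 18.5 against 19.3 and 23.6. Apoa5, Apoc3 and Angptl8 were listed at 0 in every heart.

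Among 28 other transporters, binding proteins and acyl-CoA synthetases, 17 were tested, of which 10 were lower and 7 higher, with a median of -0.14. Both heterozygous hearts were below both wild-type hearts for 8 of these genes and above them for 5, beside 24% of all tested genes below. The share of all tested genes above was not counted. Again none passed the corrected threshold or had an unadjusted limma p under 0.05. Dbi, the acyl-CoA binding protein and the most abundant of the list, was at 81.8 and 73.9 scaled TPM in wild-type and 55.7 and 65.7 in heterozygous hearts (log2 fold change -0.36, adjusted p = 0.457). Fabp5, a binding protein shared by endothelium and macrophages, was at 25.1 and 22.3 against 16.7 and 19.8 (-0.36, adjusted p = 0.430), and the mitochondrial synthetase Acsf2 was at 2.22 and 3.53 against 1.78 and 1.94 (-0.42, adjusted p = 0.416). Higher in both heterozygous hearts were Acsl3, another long-chain synthetase (0.39, adjusted p = 0.434), Slc27a3 (0.37, adjusted p = 0.411) and the cytosolic acetyl-CoA synthetase Acss2 (0.32, adjusted p = 0.494). Acsl3 was at 1.13 and 0.852 in wild-type and 2.05 and 1.23 in heterozygous hearts, so the synthetase families of Acsl1 and Slc27a1 held genes on both sides. Got2 and Cav1, a membrane fatty acid binding protein and the coat protein of caveolae, had overlapping groups, at -0.38 and -0.21.

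Genes that control fatty acid transport in the endothelium had a median nearer to that of all tested genes than the members did. Of 12 genes, 10 were tested, 7 lower and 3 higher, with a median of -0.12, none past the corrected threshold and none with an unadjusted limma p under 0.05. Vegfb, a growth factor from cardiomyocytes that acts on endothelial fatty acid transport, was at 38.2 and 38.2 scaled TPM in wild-type and 27.8 and 37.2 in heterozygous hearts (-0.24, adjusted p = 0.617), so 1 heterozygous heart was near the wild-type level. Its receptor gene Flt1 was at 4.79 and 5.32 against 3.90 and 4.33 (-0.24, adjusted p = 0.494), and Kdr was at 13.1 and 13.03 against 12.0 and 10.4 (-0.21, adjusted p = 0.577). Meox2, a transcription factor of cardiac capillaries, was higher (0.15, adjusted p = 0.673), and Vegfa, the most abundant of the list, overlapped at 344 and 284 against 358 and 259.

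Genes described as PPAR targets, other than the members, had mostly lower levels in the heterozygous hearts. Of 28 genes, 21 were tested, 20 lower and 1 higher, with a median log2 fold change of -0.51. Both heterozygous hearts were below both wild-type hearts for 18 of the 21, and for 24% of all tested genes. Acot2, at 1.497 and 1.625 scaled TPM against 0.8284 and 0.9117, reached the minimum level through the wild-type hearts alone. Its direction was therefore largely set in advance, and it remains in the counts of this list. An unadjusted limma p under 0.05 was reached by 13 of the 21, all lower, and by 6.08% of all tested genes in that direction. None of the 21 passed the corrected threshold. The list was chosen with earlier results known and its genes share 4 hearts, so these counts are not a test. Pdk4, the kinase that restrains glucose oxidation when fatty acids are burned, was at 13.9 and 7.73 scaled TPM in wild-type and 2.36 and 1.33 in heterozygous hearts (-2.03, SE 0.29, adjusted p = 0.173). Ucp3, a mitochondrial carrier of muscle, was at 38.1 and 25.7 against 11.9 and 9.74 (-1.45, SE 0.22, adjusted p = 0.186). Wild-type replicate 1 was the higher wild-type heart for both, as it was for Angptl4. Txnip, a thioredoxin-binding protein better known as a glucose-responsive gene, was at 115 and 40.0 against 26.6 and 24.1 (-1.39, SE 0.44, adjusted p = 0.340), a wide wild-type spread. The most abundant, Acaa2, Cpt1b and Acadm of mitochondrial fatty acid oxidation, had smaller differences of -0.46, -0.21 and -0.20. Pdk4, Ucp3, Plin5 and Hadha are on the study's own 8-week list from these hearts, so the list is not independent evidence of its direction. Without those 4 genes 16 of 17 were lower with a median of -0.45, still in the same hearts and so no more independent.

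**Figure D4:**
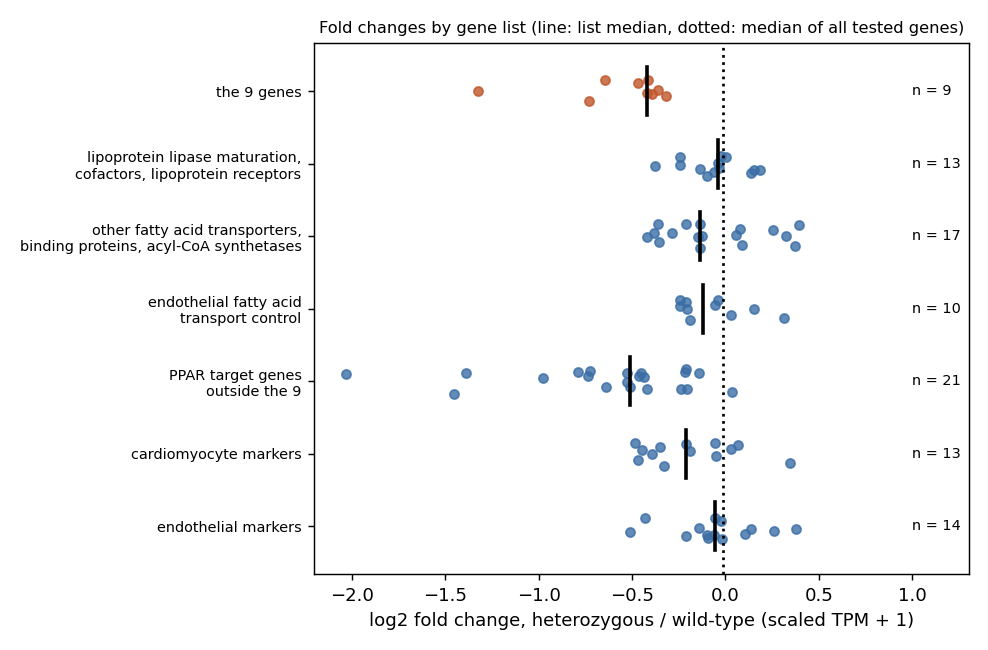
Log2 fold change of each tested gene in the 9 members, the 4 related gene lists and the cardiomyocyte and endothelial marker lists; each point is a gene, black lines are list medians and the dotted line is the median of all tested genes at -0.01. The members (-0.42) and the PPAR targets (-0.51) lie furthest to the left. The median of the lipase maturation list (-0.04) lies near the dotted line, and that of endothelial control is at -0.12.

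The members lie on 7 chromosomes, and 3 of them, Lpl, Slc27a1 and Acsl1, on chromosome 8, which also carries Ctcf. Of the 540 tested genes on chromosome 8, 22.6% were lower in both heterozygous hearts than in both wild-type hearts, and the median was 0.01. The nearest tested genes on each side of the members, 18 in all, divided evenly, with 9 lower and 9 higher and a median of 0.02. Of these neighbours 5 were below and 4 above the wild-type hearts without overlap, beside 24% of all tested genes below. Ints10, a subunit of the Integrator complex 48.8 kb from Lpl, was higher, from a mean of 2.96 to 4.77 scaled TPM (0.53, adjusted p = 0.336), while Lpl itself was lower. The 5 neighbours that were lower without overlap included Gm50114 at 6.50 kb from Vldlr (-0.65, adjusted p = 0.433) and Rab11b at 13.22 kb from Angptl4 (-0.38, adjusted p = 0.411). The others were further off, namely Slc25a4, the adenine nucleotide carrier, at 259.8 kb from Acsl1 (-0.47, adjusted p = 0.443), Fabp5 at 188 kb from Fabp4 (-0.36, adjusted p = 0.430) and Tinagl1 at 133.5 kb from Fabp3 (-0.17, adjusted p = 0.669). The value of Gm50114 was further from 0 than that of Vldlr itself.

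By the distance between profiles over the 4 hearts, the genes most like Angptl4 among all tested genes were Ucp3, Zfp46, Gm36827, Gm20390 and Gm50100. Ucp3 was the nearest, at a Euclidean distance of 0.142 on the log2 scale. The genes most like Lpl were Psmb2, Etfa, Retnla, Cd47 and Phyh, all within a distance of 0.0577. Etfa, a flavoprotein subunit that takes electrons from fatty acid oxidation, was at 46.0 and 57.2 scaled TPM in wild-type and 27.4 and 35.6 in heterozygous hearts. With 4 hearts many genes can share a profile, and likeness here is only of these values. The members themselves did not all rank the hearts alike, since wild-type replicate 2 was the higher wild-type heart for 8 members and replicate 1 for Angptl4, and the higher heterozygous heart was replicate 2 for Lpl, Gpihbp1, Fabp3 and Fabp4 and replicate 1 for the other 5.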

How the data were processed

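RNA-seq of whole hearts from 4 mice aged 8 weeks was analysed. The authors trimmed reads with Trim Galore, aligned them to mm10 with STAR and quantified genes with RSEM, and they deposited TPM per gene, rounded to 2 decimals. The annotation release is not given in the sources used here. TPM keep no depth, so counting error is unknown and no count model was fitted. The deposited table has 55401 genes, of which 55141 matched GENCODE identifiers of mm10.

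Each library was scaled by a median-of-ratios factor over the 17041 genes above 0 in all 4 libraries, and values were analysed as log2(scaled TPM + 1). The test took the 10036 genes whose TPM averaged 1 or more and used limma (3.58.1) in R (4.3.3) with an eBayes trend. Its p-values are two-sided and were adjusted over these genes by the Benjamini-Hochberg method. The correlation between libraries was 0.966 to 0.981. Adjusted p and 95% intervals come from this fit, and a call needs an adjusted p under 0.05 and a fold over 1.5. Ratios were tested by exact permutation over libraries. Near-identical transcripts were searched with BLAST+ (2.17.0), over at least 200 bases. Tables were made with Python (3.11.15) and pandas (2.3.3), and scripts were tested on simulated data.

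The members, the related lists and the marker lists were chosen with earlier results of these data known. Named genes are the members, in each related list up to 3 genes with the lowest and 3 with the highest fold change among genes with separate groups and the 3 most abundant, and the 5 genes nearest to Angptl4 and to Lpl in profile. A gene that this rule names is not reported here. Lmf1, Etfa, the markers and the neighbours given by name were picked after their values were seen. The alternatives were other pseudocounts, filters, scalings, thresholds and variance estimates, a replicate block and each library left out. Ratios to markers without Egfl7 or to their geometric mean were added after the data were seen.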

Additional observations from a re-analysis of the deposited data

How the results depend on the processing

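Every member was lower in heterozygous hearts in all 124 values computed under the alternatives, and 2 of these passed the threshold, both for Angptl4 (TPM as deposited, with an adjusted p of 0.0342, and without wild-type replicate 2, at -1.58 with an adjusted p of 0.00807), which entered the test only by being high in wild-type hearts. Without wild-type replicate 1, Angptl4 was under the minimum level and was not tested, and at a mean TPM of at least 5 it was not tested either. With TPM as deposited, 11 genes were called lower and 2 higher. The medians were then -0.84 for the members, -0.40 for lipase maturation, cofactors and receptors, -0.54 for the other transporters and synthetases, -0.46 for endothelial control and -0.90 for PPAR targets. With mt- genes removed and TPM rescaled, 12 were called lower and 2 higher, 9 members had an unadjusted p under 0.05, and the medians in the same order were -0.75, -0.34, -0.46, -0.44 and -0.88. These scalings also moved the median of all tested genes, to -0.35 and -0.31. With no filter on low values 0 genes were called lower, and the medians were -0.012 for the other transporters and -0.18 for endothelial control. At a mean TPM of at least 5 the median of the lipase list was 0.057, on the other side of 0, and that of endothelial control was -0.055. A pseudocount of 5 gave -0.37 for the members, -0.052 for endothelial control and -0.37 for PPAR targets. Robust eBayes called 2 genes higher, and 7 members had an unadjusted p under 0.05 without the trend. The cause of these shifts was not tested.

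Leaving out 1 heart at a time, when the lone heart of its genotype is assumed to vary like the others, gave 3 to 25 genes called lower, 4 to 12 called higher and 1 to 6 members with an unadjusted p under 0.05. Without wild-type replicate 1 the counts lower and higher were 17 and 6, without wild-type replicate 2 they were 25 and 8, without heterozygous replicate 1 they were 4 and 12 and without heterozygous replicate 2 they were 3 and 4. The medians ranged from -0.51 to -0.37 for the members, from -0.71 to -0.40 for PPAR targets, from -0.16 to -0.061 for endothelial control, from -0.11 to -0.0052 for the lipase list and from -0.10 to -0.077 for the other transporters.

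Same-numbered hearts share only a number in the labels and are different mice, and their deviations correlated at 0.101. A fit that took this number as a block gave 8 genes called lower and 3 called higher, and none of these was a member. The members' differences are the same in that fit, with an adjusted p of 0.0549 for Angptl4, 0.207 for Lpl and 0.251 for Cd36, and 2 pairs cannot give an exact p below 0.5.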
